A study of Mus musculus with 6 samples.

Results

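The 31 genes described here cover cholesterol making, sterol sensing and cholesterol removal in mouse brain. They were chosen by symbol, from a list that runs from the first step of the mevalonate pathway to the oxysterol receptors. All 31 were found among the 49315 genes counted, and all 31 had 10 or more reads in at least 3 of the 6 libraries. RNA-seq libraries were made from the cerebral cortex of wild type mice, 3 from mice given a vector with a scrambled shRNA (shScr) and 3 from mice given a Fabp7-specific shRNA (shFabp7). The vectors were AAV-PHP.eB, which enters the brain from the bloodstream, given by injection behind the eye at 21 days of age, and both constructs carry GFP and are driven by a Gfap promoter, which is active mainly in astrocytes. Both groups also received the bacterial endotoxin LPS (lipopolysaccharide), an inflammatory stimulus, at 1 mg/kg, as 3 weekly doses from 4 months of age, and tissue was collected 24 h after the last dose. No library without LPS or without a vector was analysed here, so the comparison is between the shRNAs under LPS. The shRNA is directed to astrocytes while the RNA comes from whole cortex, so a change in astrocytes alone is diluted by RNA of the other cells. In such tissue, fewer cells of a type and less RNA per cell cannot be told apart.

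As background, the adult brain makes its own cholesterol, because lipoproteins of the blood do not cross the blood-brain barrier. Astrocytes and oligodendrocytes do most of this work in the adult, the latter for myelin, and astrocytes pass cholesterol to neurons on lipoprotein particles. The transcription factor SREBP2 switches on nearly every enzyme of the pathway when membrane sterol is low, and the SCAP and INSIG proteins hold it in the endoplasmic reticulum when sterol is plentiful. Neurons dispose of surplus cholesterol by hydroxylating it with CYP46A1, and the oxysterols formed bind the LXR receptors. The shRNA target FABP7 carries fatty acids inside astrocytes.

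The promoters of these genes share sequence features that were not used in choosing them, and stretches of 6 are shown. All 6 were chosen after their values were seen, Hmgcs1 for its level and its sterol element. The other 5 are members whose libraries did not overlap between the groups and whose window holds the box CCAAT. They are not all of the non-overlapping members. Acat2, Scap and Nr1h2 have no such box in their windows, Soat1 has 1 but is not shown, and Stard4 has no window. RefSeq promoter windows (build GRCm38.p6, 250 bases before to 50 after a start) were matched by symbol for 26 of the 31 members. The box CCAAT, bound by NF-Y, a partner of SREBP2, was present on either strand in 22 of the 26, and 13 of the 26 had 2 or more copies. Among the 16 synthesis enzymes with a window it was present in 15. Among genes tested for expression, 42.3% of the 12183 with a window held the box, and 37.4% of all 32851 windows did. Acat2, Scap, Nr1h2 and Nr1h3 held none. The box GGGCGG, bound by Sp1, was present in 23 of the 26, against 65.3% of the tested genes with a window. TCACNCCAC, taken as the core of a sterol regulatory element, was present in Hmgcs1 alone among the members and in 1.24% of all windows. A shorter form, CACNCCAC, was present in 3 of the 26, Acat2, Hmgcs1 and Insig1, against 7.7% of the tested genes with a window. The LXR element, a pair of AGGTCA copies with NNNN between them, matched no member window and 5 of all windows. All motifs were searched on both strands, and a match is a description of letters, not a measured binding site. In the lines that follow, capitals mark CCAAT in either orientation (ATTGG on the opposite strand) and, in Hmgcs1, also TCACCCCAC, and every stretch lies before a RefSeq start and reads 5′ to 3′ on the gene's plus strand.
Hmgcs1, HMG-CoA synthase, chr13:119690161-119690320: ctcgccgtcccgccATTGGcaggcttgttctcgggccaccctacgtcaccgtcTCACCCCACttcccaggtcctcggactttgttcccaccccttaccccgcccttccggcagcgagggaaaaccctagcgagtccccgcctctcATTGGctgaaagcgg
Idi1, isopentenyl diphosphate isomerase, chr13:8885486-8885605: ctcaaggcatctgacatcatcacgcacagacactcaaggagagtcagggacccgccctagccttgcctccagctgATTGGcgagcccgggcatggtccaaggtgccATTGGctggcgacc
Nsdhl, a sterol dehydrogenase, chrX:72918401-72918520: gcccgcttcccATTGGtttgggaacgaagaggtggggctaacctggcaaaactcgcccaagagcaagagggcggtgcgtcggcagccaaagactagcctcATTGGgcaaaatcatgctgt
Dhcr7, a sterol reductase, chr7:143830094-143830213: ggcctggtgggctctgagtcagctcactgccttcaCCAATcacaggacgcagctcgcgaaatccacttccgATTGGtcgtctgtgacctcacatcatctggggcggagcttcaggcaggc
Srebf2, encoding SREBP2, chr15:82147089-82147208: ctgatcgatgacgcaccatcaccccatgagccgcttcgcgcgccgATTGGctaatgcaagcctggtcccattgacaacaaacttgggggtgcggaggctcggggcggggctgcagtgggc
Cyp46a1, cholesterol hydroxylase of neurons, chr12:108334136-108334255: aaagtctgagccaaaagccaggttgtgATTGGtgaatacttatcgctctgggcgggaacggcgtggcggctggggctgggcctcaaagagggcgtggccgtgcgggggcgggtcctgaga
Counted from the RefSeq start, the boxes begin at -176 and -45 in the Hmgcs1 stretch, with the sterol element at -137 between them. The Dhcr7 stretch precedes the downstream of its RefSeq starts in the table. The boxes begin at -45 and -14 in Idi1, -109 and -20 in Nsdhl, -85 and -49 in Dhcr7, -135 in Srebf2 and -153 in Cyp46a1. Hmgcs1 is the most highly expressed synthesis enzyme in these libraries. Idi1, Nsdhl and Dhcr7 are enzymes whose levels in shFabp7 lay below every shScr library, and Srebf2 and Cyp46a1 are members whose levels lay above.

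Fabp7 reads were fewer in every shFabp7 library, at 93, 41 and 66 in libraries 1 to 3, while shScr had 484, 285 and 290. Its log2 fold change was -2.31 ± 0.35 (SE), with an adjusted p of 0.0704 in edgeR's quasi-likelihood test and 3.41e-12 in DESeq2. Total counts ran from 16914012 to 18991235 per library. By Xist and Y-linked transcripts, 2 shScr libraries and 1 shFabp7 library were male, and 1 and 2 were female. shFabp7 library 2, taken as female, was less clear. Its Y-linked transcripts summed to 13.6 CPM, against 1.47 in shScr library 3 and 1.92 in shFabp7 library 3, the other female libraries. Its Xist stood at 769 CPM, against 936 and 954 CPM in those 2. The reason was not tested. Excitatory neuron markers, the defining markers of cortex, were all detected. They summed to 4118 to 5546 CPM (counts scaled to library size with TMM factors) in shScr and 6006 to 6864 CPM in shFabp7. All 10 had log2 fold changes above 0. At an adjusted p under 0.05, 0 passed in edgeR and 3 in DESeq2, where 0.116% and 4.11% of all genes passed. Hippocampal markers summed to 117 to 230 CPM in shScr and 104 to 127 CPM in shFabp7, and choroid plexus and ependymal markers to 15.0 to 33.7 CPM and 10.2 to 17.4 CPM. shScr library 1 stands apart: it had the lowest excitatory neuron sum and the highest hippocampal and choroid plexus sums of the 6 libraries, with shScr library 3 second in both of the latter. shFabp7 library 3 also stands apart, by its striatal markers. These summed to 790, 338 and 486 CPM in shScr libraries 1 to 3, and shFabp7 libraries 1 to 3 had 395, 330 and 1003 CPM.

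The log2 fold changes of the cholesterol genes were small. Of the 31 members, 0 passed an adjusted p of 0.05 in edgeR's quasi-likelihood test, where 0.116% of the 17185 genes tested passed, and 0 passed at 0.1, where 1.7% did. DESeq2 also called 0 of the 31, where it called 4.11% of all genes it tested. So few genes passed that 0 of 31 is near the share of all genes and is not particular to these members. The shRNA target Fabp7 itself, with an adjusted p of 0.0704 in edgeR, did not pass 0.05 there. Adjusted p-values of the members ranged from 0.184 to 0.985 in edgeR and from 0.213 to 0.993 in DESeq2. At an unadjusted p under 0.05 in edgeR there were 5 members (16.1%), 3 lower and 2 higher in shFabp7, against 16.8% of all genes tested, 8.32% lower and 8.44% higher. The members' share is near that of all genes. Log2 fold changes ran from -0.31 to 0.22 with a median of -0.044, against -0.0065 for all genes tested, and 19 of the 31 (61.3%) lay below 0, against 51.5% of all genes. The 22 members with a CCAAT box had a median of -0.052, with 15 below 0, and the 4 with a window but no box had 0.050, with 2 below 0. A group of 4 is small, and a link between the box and the change was not tested. The 19 synthesis enzymes had a median of -0.053, with 13 below 0, and the other 12 members had -0.012, with 6 on each side of 0.

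The absence of calls came with narrow intervals. Each member had from 63 to 4793 reads in a library, and the SE of its log2 fold change ran from 0.054 to 0.19. The 95% interval of the fold change lay within 1.5-fold in both directions for 30 of the 31 members. The exception at 1.5-fold was Nr1h3, the member with the fewest reads, at 0.18 with an interval of -0.24 to 0.60. These intervals are for each gene by itself and are not adjusted for the number of genes.

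**Figure D1:**
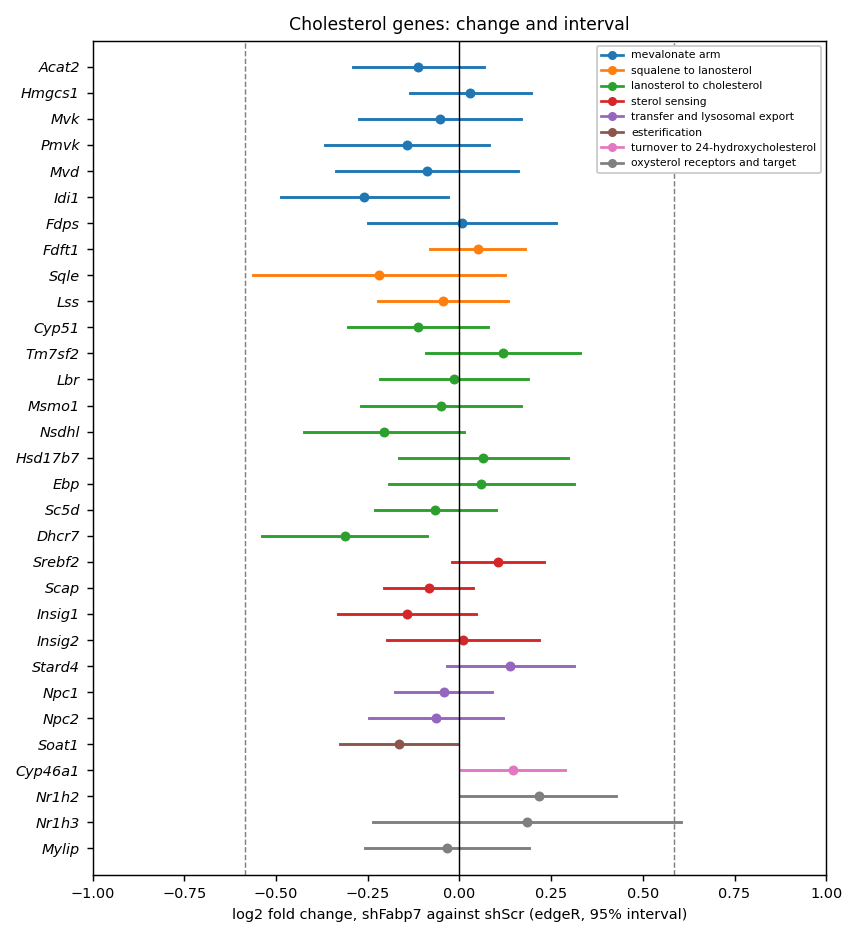
Log2 fold change of each of the 31 members, shFabp7 against shScr, from edgeR (points) with 95% intervals (lines), coloured by role. Dashed lines stand at 1.5-fold in each direction, and the Nr1h3 interval is the single one that passes them.

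For 10 of the 31 members (32.3%) the groups did not overlap, against 22.9% of all genes tested. In 6 of them all shFabp7 libraries lay below all shScr libraries, where 11.5% of all genes did so, and in 4 they lay above, where 11.4% did. The 6 lower members were the synthesis enzymes Acat2, Idi1, Nsdhl and Dhcr7, the SREBP escort Scap and the esterifying enzyme Soat1. The 4 higher members were Srebf2, Stard4, Cyp46a1 and Nr1h2. With 3 against 3 libraries the exact two-sided permutation test cannot give a p below 0.1, and it gave 0.1 for each of the 10.

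**Figure D2:**
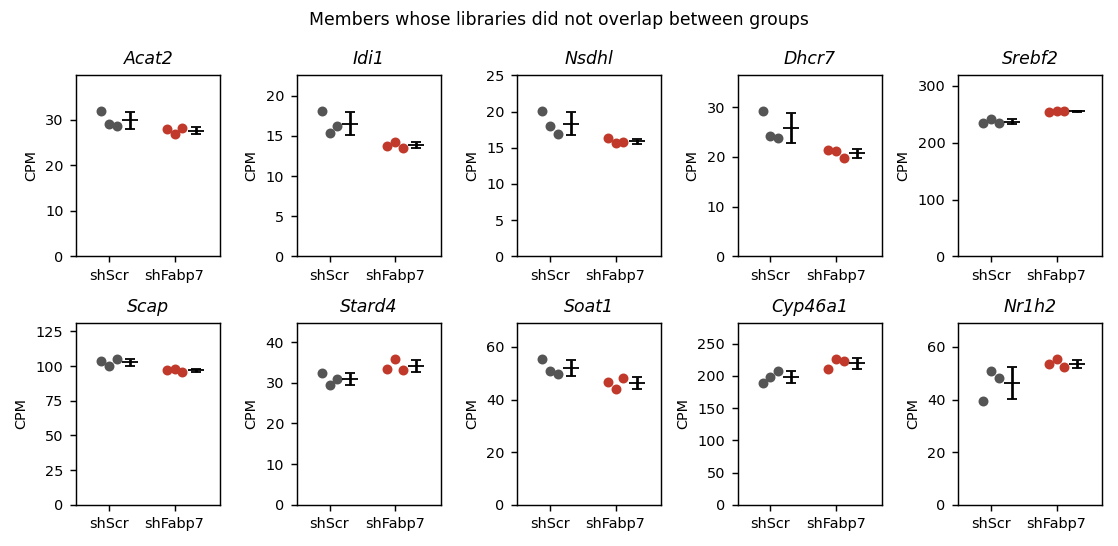
Levels in CPM of the 10 members whose groups did not overlap, by library (points), with the mean and SD of each group of 3 beside them. All axes start at 0, and the distance between the groups is small against the level of each gene.

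The mevalonate arm turns acetyl-CoA into farnesyl diphosphate, the last precursor shared by sterols and prenylated proteins. Of its 7 members 5 lay below 0, with a median log2 fold change of -0.088. Hmgcs1, which makes the HMG-CoA from which mevalonate is formed, had 239, 215 and 239 CPM in shScr libraries 1 to 3 and 245, 245 and 217 CPM in shFabp7 libraries 1 to 3. The groups overlapped, with the lowest library of each at nearly the same level, and the log2 fold change was 0.03 (95% interval -0.14 to 0.20), a sign that turned without shScr library 2. Idi1, the isomerase that makes both isoprenoid building blocks available, had 18.1, 15.3 and 16.2 CPM in shScr and 13.7, 14.2 and 13.5 CPM in shFabp7. Every shFabp7 library was below every shScr library, and shScr library 1 was the highest. Its log2 fold change was -0.26 ± 0.10 (SE), with an adjusted p of 0.246 in edgeR, and -0.19 without shScr library 1.

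Acat2, the cytosolic thiolase that starts the pathway, had 31.9, 29.0 and 28.5 CPM in shScr and 27.9, 26.8 and 28.1 CPM in shFabp7. Its log2 fold change was -0.11 ± 0.08 (SE), -0.060 without shScr library 1 and -0.055 with a score of regional markers as a covariate. The gap between the nearest libraries of the 2 groups was under 1 CPM. Reads of Acat2 can be shared with its close paralogue Acat3, so its value is uncertain. The kinases Mvk and Pmvk, which phosphorylate mevalonate in turn, had log2 fold changes of -0.05 and -0.14, the latter -0.067 without shFabp7 library 3 and -0.083 without shScr library 3. Mvd, the decarboxylase after them, had -0.09, and Fdps, farnesyl diphosphate synthase, had 0.01, and the sign of each turned when single libraries were left out. Fdps shares 26.7% of its exon sequence with Gm43738 on the same strand, a gene with 0 or 1 read per library.

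Squalene synthase, squalene epoxidase and lanosterol synthase commit farnesyl diphosphate to sterols. Fdft1, squalene synthase, had 68.6, 70.8 and 73.6 CPM in shScr and 75.0, 71.9 and 73.6 CPM in shFabp7, with a log2 fold change of 0.05 (95% interval -0.08 to 0.18). Its groups overlapped, and its exons share 767 bases (26.8%) with Ctsb on the opposite strand, so its reads are uncertain where the counting did not use strand. Sqle, a rate-limiting enzyme of the pathway, was the most variable member in both groups, with coefficients of variation of 16.7% in shScr and 13.97% in shFabp7. Sqle stood at 69.7, 50.002 and 65.1 CPM in shScr and at 61.1, 51.0 and 46.8 CPM in shFabp7. The shScr libraries alone spanned most of the range of all 6, and the log2 fold change of -0.22 ± 0.15 (SE) came with a 95% interval of -0.56 to 0.13. It was -0.12 without shScr library 1, -0.35 without shScr library 2, and 0.081 without shScr libraries 1 and 3 together. Lss, which closes the rings to lanosterol, had -0.04, a sign that turned without shScr library 1.

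From lanosterol to cholesterol, 6 of 9 members lay below 0, with a median of -0.050. Dhcr7, the reductase that turns 7-dehydrocholesterol into cholesterol, had the lowest log2 fold change of the 31 members. The gene (ENSMUSG00000058454) lies on chromosome 7 from 143823145 to 143848410, plus strand, in GRCm38. Its levels were 29.2, 24.3 and 23.8 CPM in shScr and 21.3, 21.2 and 19.7 CPM in shFabp7, means of 25.8 ± 2.99 and 20.8 ± 0.917 CPM (SD, n = 3 each). The groups did not overlap, and shScr library 1 lay further from the other shScr libraries than these lay from shFabp7. The log2 fold change was -0.31 ± 0.10 (SE, 95% interval -0.54 to -0.09), with an adjusted p of 0.184 in edgeR and 0.213 in DESeq2. It was -0.21 without shScr library 1, -0.27 with sex as a covariate, and -0.33 in male and -0.22 in female libraries taken separately.

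Nsdhl, the dehydrogenase that strips methyl groups from the sterol nucleus together with Msmo1 and Hsd17b7, had 20.1, 18.0 and 16.9 CPM in shScr and 16.3, 15.6 and 15.7 CPM in shFabp7. Its log2 fold change was -0.21 ± 0.10 (SE), and -0.13 without shScr library 1. Among its partners Msmo1 had -0.05 and Hsd17b7 0.07, the groups overlapped for both, and the sign of both turned with a setting. Sc5d, the desaturase before Dhcr7 and the most highly expressed member of this step in CPM, had 81.9, 73.5 and 80.2 CPM in shScr and 78.5, 78.1 and 68.4 CPM in shFabp7. These overlapped, with a log2 fold change of -0.07 (95% interval -0.23 to 0.10) and a sign that turned without shScr libraries 1 and 3 together. Cyp51, the lanosterol demethylase, had -0.11, which was -0.033 without shFabp7 library 3 and -0.054 without shScr library 1. Tm7sf2 and Lbr, reductases that act on its product, had 0.12 and -0.01, the sign of Lbr turning without shScr library 2 or shFabp7 library 3, and Ebp, the sterol isomerase, had 0.06. Tm7sf2 shares 15.3% of its exon sequence with Vps51 on the same strand.

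The sensing genes set how much SREBP2 reaches the nucleus. Srebf2 itself, which encodes SREBP2, had 235, 242 and 234 CPM in shScr and 253, 256 and 256 CPM in shFabp7. It had the tightest groups of the 31 members, with coefficients of variation of 1.704% and 0.58%, and every shFabp7 library was above every shScr library. The log2 fold change was nevertheless small, at 0.11 ± 0.06 (SE), with an adjusted p of 0.371 in edgeR. Scap, the escort that carries SREBP2 to the Golgi, had 104, 99.9 and 105 CPM in shScr and 97.4, 97.8 and 95.7 CPM in shFabp7, all lower, with a log2 fold change of -0.08 ± 0.05 (SE). Scap shares 13.2% of its exon sequence with 5830462I19Rik on the opposite strand. Insig1, a retention protein and itself a well-known SREBP target, had 75.1, 63.8 and 65.1 CPM in shScr and 60.8, 66.8 and 57.2 CPM in shFabp7, with overlapping groups and a log2 fold change of -0.14, which was -0.065 without shScr library 1 and -0.091 without shFabp7 library 3. Insig2, its counterpart, had 0.01, with a sign that turned without shScr library 2 or shFabp7 library 1.

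Among genes of sterol transfer, Stard4, a soluble carrier of cholesterol between membranes, had 32.5, 29.4 and 31.1 CPM in shScr and 33.5, 35.8 and 33.1 CPM in shFabp7. The groups were separated by less than 1 CPM, and the log2 fold change was 0.14 ± 0.08 (SE). Npc1, the membrane protein that exports cholesterol from lysosomes, had 102, 102 and 93.4 CPM in shScr and 95.5, 94.7 and 97.7 CPM in shFabp7. These overlapped, with a log2 fold change of -0.04 (95% interval -0.17 to 0.09). Npc2, the soluble protein that hands cholesterol to Npc1, had -0.06, with a sign that turned when the regional makeup was a covariate and without shScr libraries 1 and 3 together.

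Soat1 makes cholesteryl esters for storage in lipid droplets. It had 55.3, 50.7 and 49.8 CPM in shScr and 46.7, 43.9 and 48.3 CPM in shFabp7, all lower. For Soat1 the log2 fold change was -0.16 ± 0.07 (SE), with an adjusted p of 0.292 in edgeR. It was -0.12 without shScr library 1 and -0.099 with a regional score (hippocampal, striatal and choroid plexus markers less excitatory neuron markers) as a covariate. Microglia markers were also lower by their sum. They summed to 485 to 509 CPM in shScr and 425 to 469 CPM in shFabp7, and no defining marker was at 0. Of the 8, 7 had log2 fold changes below 0, where 51.5% of all genes did. In 4 of 8 all shFabp7 libraries lay below all shScr libraries, where 11.5% of all genes did so. In edgeR 0 of 8 passed and in DESeq2 1 of 8, where 0.116% and 4.11% of all genes passed. Their part in the Soat1 value was not tested.

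Cyp46a1, the neuronal enzyme that makes 24-hydroxycholesterol for export across the blood-brain barrier, had 189, 198 and 208 CPM in shScr and 210, 226 and 222 CPM in shFabp7. All shFabp7 libraries were higher, with a narrow gap between the nearest pair. The log2 fold change of Cyp46a1 was 0.15 ± 0.06 (SE), with an adjusted p of 0.285 in edgeR. The excitatory neuron markers were also higher in each shFabp7 library than in any shScr library by their sum. With the regional score as a covariate the Cyp46a1 value was 0.12, with an adjusted p of 0.633 in edgeR.

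The LXR receptors read the oxysterols. Nr1h2, encoding LXR-beta, had 39.3, 50.9 and 48.4 CPM in shScr and 53.4, 55.3 and 52.3 CPM in shFabp7. The shFabp7 libraries were all higher, and shScr library 1 was well below the other shScr libraries. The log2 fold change of 0.22 ± 0.09 (SE) was the highest of the 31 members, with an adjusted p of 0.290 in edgeR. It was 0.11 without shScr library 1, 0.084 with the regional score as a covariate and 0.075 without shScr libraries 1 and 3 together. Nr1h3, encoding LXR-alpha, was low, with group means of 3.93 ± 0.582 (shScr) and 4.46 ± 0.501 CPM (shFabp7, SD, n = 3 each) and overlapping libraries. Mylip, an LXR target that marks lipoprotein receptors for degradation, had -0.03, with a sign that turned without shScr library 3 or shFabp7 library 1.

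Levels of different genes were compared per length, as CPM per kb of exon averaged over the 6 libraries. This length takes in all annotated exons of a gene, so a gene with much annotated exon sequence can stand low. Lss, for example, had 10787 bases and a mean of 44.1 CPM in shScr. Cyp46a1 stood highest at 98.5, followed by Hmgcs1 at 72.1, Srebf2 at 49.3, Fdft1 at 25.3 and Insig1 at 21.0. The lowest were Nr1h3 at 1.67, Lbr at 3.36, Dhcr7 at 4.00, Lss at 4.03 and Idi1 at 4.33. The level of Nr1h2 was 14.9. Enzymes of consecutive steps thus differed widely in level by this measure, with Hmgcs1 far above the 6 other members of the mevalonate arm, which ran from 4.33 to 16.4.

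**Figure D3:**
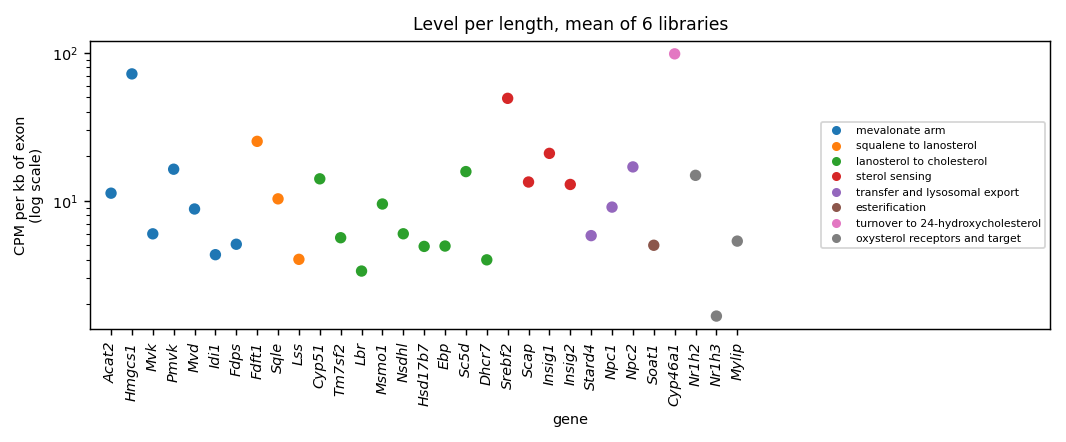
Mean level over the 6 libraries of each member, in CPM per kb of exon on a log scale, coloured by role. Cyp46a1, Hmgcs1 and Srebf2 stand highest and Nr1h3 lowest.

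Libraries of the same group differed by more than the group means did when the synthesis enzymes were added up. The summed level of the 19 synthesis enzymes was 885, 802 and 880 CPM in shScr libraries 1 to 3 and 863, 848 and 776 CPM in shFabp7 libraries 1 to 3. shScr library 2 and shFabp7 library 3 were the lowest, and the groups overlapped. Group means were 856 ± 46.1 and 829 ± 46.4 CPM (SD, n = 3 each), a difference of -3.10%. For all 31 members the sums averaged 1811 ± 53.7 and 1812 ± 42.3 CPM.

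The extremes were spread unevenly over the libraries. Of the 31 members, 13 had their highest level in shScr library 1, and 12 had their lowest in shFabp7 library 3, among them 10 of the 19 synthesis enzymes. Without shFabp7 library 3, the library with the highest striatal sum, the median log2 fold change of the synthesis enzymes was -0.029. With the regional score, which includes striatal markers, as a covariate it was -0.043. shFabp7 library 3 held the highest level of 0 members and shScr library 2 of 1. Oligodendrocyte markers summed to 3848, 4916.5 and 4188 CPM in shScr and 4214, 4758 and 5028.5 CPM in shFabp7. shScr library 2 and shFabp7 library 3, the lowest in synthesis enzymes, were thus the highest in oligodendrocyte markers. Of these markers 7 of 10 had log2 fold changes above 0 and none was at 0. In edgeR 0 of 10 passed, where 0.116% of all genes tested did. With an oligodendrocyte score as a covariate the median of the synthesis enzymes was -0.052, in place of -0.053. In that fit 0 members passed in edgeR, where 1.31% of all genes did.

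**Figure D4:**
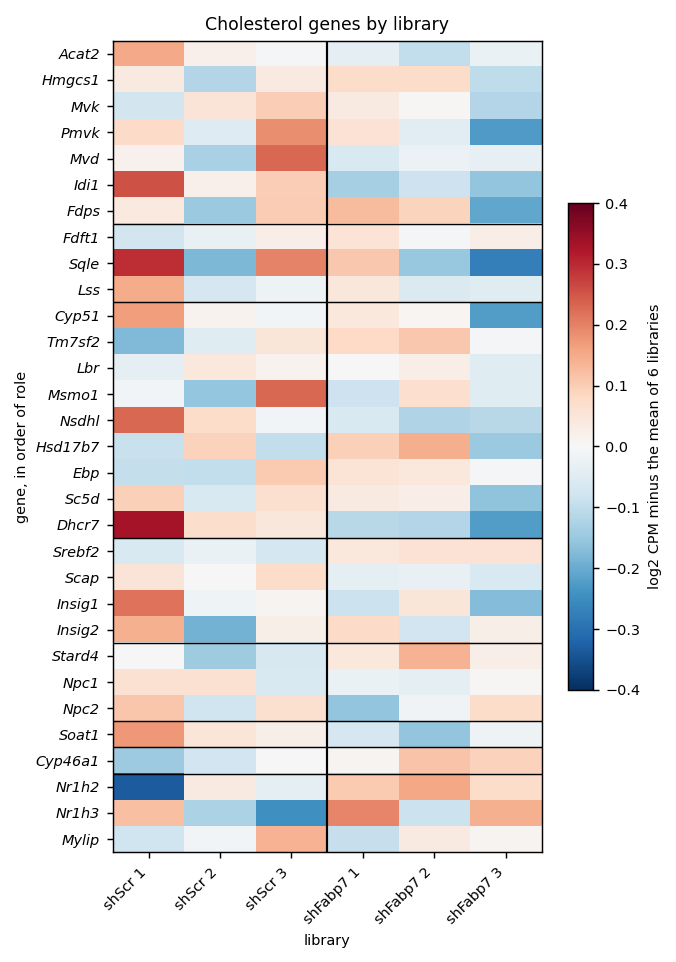
Each member's log2 CPM in each library less its mean over the 6 libraries, as colour from -0.4 (blue) to 0.4 (red), with genes in order of role and a line between the groups. shScr library 1 has many red cells and shFabp7 library 3 many blue ones among the synthesis enzymes.

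**Figure D5:**
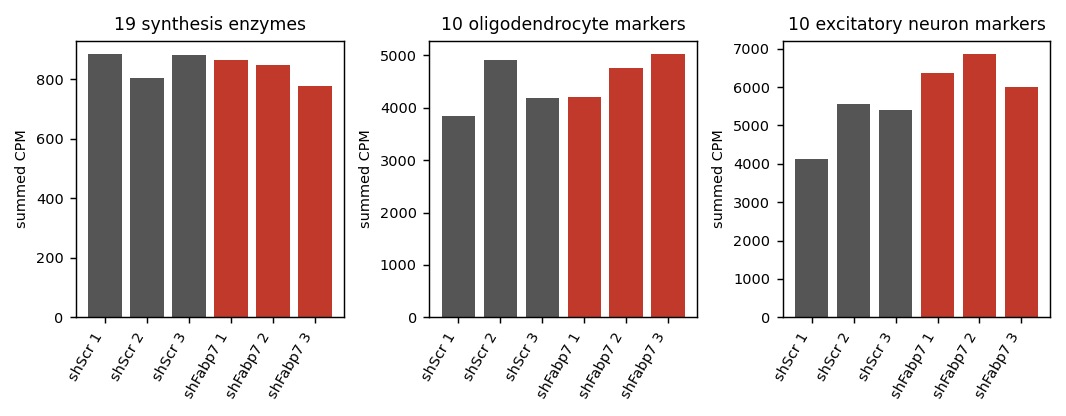
Summed CPM by library of the 19 synthesis enzymes, 10 oligodendrocyte markers and 10 excitatory neuron markers, shScr in grey and shFabp7 in red. The synthesis enzymes overlap between the groups, and the excitatory neuron markers do not.

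The sexes gave the same sign for 20 of the 31 members when the log2 ratio of mean CPM was taken within each, 13 lower and 7 higher in shFabp7. Each of these comparisons rests on 3 libraries and was not tested by itself. With sex as a covariate the median of all members was -0.056 and 0 passed in edgeR, where 7 of 17185 genes tested did. The members with the same sign in both sexes included Dhcr7, Idi1 and Soat1, which were lower, and Cyp46a1, Nr1h2 and Srebf2, which were higher. For these, and for all 10 members whose groups did not overlap, the same sign in both sexes was fixed beforehand. Some other signs rest on values near 0, such as -0.0003 for Msmo1 and -0.0007 for Lbr in males and 0.0015 for Tm7sf2 in females. The share over all genes is not given here.

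A list of 52 further genes of sterol uptake, SREBP cleavage, sterol transfer, efflux and oxysterol making was drawn up alongside, of which 51 were found and 48 were tested. In edgeR 0 of the 48 passed the threshold, where 0.116% of all genes tested did. In DESeq2 2 of the 48 passed, among them Cyp39a1, where 4.11% of all genes did. At an unadjusted p under 0.05 in edgeR there were 11, 8 lower and 3 higher in shFabp7, against 8.32% and 8.44% of all genes. The groups did not overlap for 10 that were lower and 3 that were higher, against 11.5% and 11.4% of all genes. The median of the list was 0.014, with 23 of 48 below 0.

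Cyp39a1, an oxysterol hydroxylase that acts on the 24-hydroxycholesterol made by Cyp46a1, held few reads. There were 25, 44 and 23 reads in shScr and 51, 77 and 85 in shFabp7, or 1.65 ± 0.599 and 4.09 ± 0.904 CPM (SD, n = 3 each). All shFabp7 libraries were higher. The log2 fold change was 1.30 ± 0.29 (SE, 95% interval 0.65 to 1.95), with an adjusted p of 0.0909 in edgeR and 0.0102 in DESeq2. It was 0.80 without shScr libraries 1 and 3 together and 1.14 without shScr library 3, and it was above 0 under all 16 alternatives. As the groups did not overlap, the sign could hardly turn with libraries left out.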

How the data were processed

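Libraries (6, mouse cortex) were made with a strand-preserving mRNA kit using 0.5 µg of RNA, per the labels. The authors deposited raw counts for each gene, as featureCounts writes them per the file headers, without normalization. The submitters' processing notes list GRCm39 and, without roles, the tools STAR 2.5.2b, Trimmomatic 0.36, DESeq2 and Subread 1.5.2. Of 49056 gene IDs found in GENCODE M21 (GRCm38), 91.4% had the same position, and coordinates are given as GRCm38. Whether counting used strand is not given in sources used here.

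Groups and replicate numbers come from the titles. Separate animals are not stated in the labels. Each group held male and female libraries by Xist and Y-linked transcripts, so its libraries cannot all come from the same animal. How many animals each group holds is not given. P-values then cover only the spread among these libraries, part of which may be technical. No library was a copy of another (chi-square over degrees of freedom 5.84 or more for every pair).

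The test was the quasi-likelihood F test of edgeR (version 4.0.16, R 4.3.3) with robust estimation, TMM factors, filterByExpr and the group as sole term, two-sided, with Benjamini-Hochberg adjustment over 17185 genes and a threshold of 0.05. Each SE is the log2 fold change (shFabp7 less shScr) divided by the square root of F. Alternatives were DESeq2 1.42.0, upper-quartile or RLE factors, no filter, 10 reads in 3 libraries, a replicate block, sex, an oligodendrocyte score or a regional score as covariate, a threshold of 0.1 and each library left out. Leaving out shScr libraries 1 and 3 together was added after seeing the data. The test was tried on simulated data.

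Values in every library are given for members called by either tool, for those whose groups do not overlap and for the most highly expressed of each role. Of the further genes, those called by either tool are named, except 1 that is not reported here. The members and lists were chosen with earlier results of these data known.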

Additional observations from a re-analysis of the deposited data

How the results depend on the processing

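Under all 17 alternatives 0 of the 31 members passed in edgeR or DESeq2, also with no filter, where 5.23% of all genes passed. Many of these settings could hardly call a member, so their agreement adds little. The main fit itself called 20 genes, as did RLE or upper-quartile factors, 10 reads in 3 libraries and leaving out shScr library 3. With the regional score 25 genes passed. Without shFabp7 library 2, and likewise without shFabp7 library 3, 0 genes of any kind passed in edgeR. Without shFabp7 library 1, 10 genes passed, and with sex as a covariate 7 of 17185 did. Where a sign turned, the cause was not tested. Without shScr libraries 1 and 3 together, Mvd had 0.093, Sqle 0.081, Lss 0.048, Msmo1 0.14, Hsd17b7 -0.058, Sc5d 0.029 and Npc2 0.051. In that setting the median of all members was 0.048, of synthesis enzymes 0.029 and of the other 12 members 0.063, where the 1 shScr library left is assumed to vary like the shFabp7 libraries. With the regional score Lss had 0.037, Hsd17b7 -0.057, Npc2 0.022 and the median of the other 12 members was 0.053. With each library left out in turn, values ranged from -0.018 to 0.087 for Hmgcs1, -0.17 to 0.016 for Mvd, -0.063 to 0.11 for Fdps, -0.087 to 0.024 for Lss, -0.036 to 0.0086 for Lbr, -0.13 to 0.062 for Msmo1, -0.074 to 0.089 for Insig2 and -0.081 to 0.032 for Mylip. The median of the other 12 members ranged from -0.034 to 0.034, that of synthesis enzymes from -0.11 to -0.014 and that of all members from -0.074 to -0.011. Fabp7 passed in DESeq2 (-2.30), with no filter (-2.31), with the replicate block (-2.32), with the oligodendrocyte score (-2.26) and without shScr library 1 or 2, and ranged from -2.66 to -2.004 with a library left out. Cyp39a1 passed with no filter (adjusted p of 9.52e-05), the replicate block (0.0267), the oligodendrocyte score (0.0381) and without shScr library 2 (0.0165) in edgeR.

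Replicate numbers were not taken as pairs in the main fit. Deviations of same-numbered libraries correlated at 0.081, 0.154 and 0.057, and those of libraries with different numbers ran from -0.179 to 0.099. Whether libraries of the same number share a factor was not tested. The replicate block called 0 members and 629 genes, against 20 without it. Counting error limits Nr1h3 and Cyp39a1 most, which had 63 to 87 and 23 to 85 reads per library.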
